A study of Mus musculus with 8 samples.

Results

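Cdkn1a and 9 other direct targets of the tumour suppressor p53 were followed in the livers of mice on a high-fat diet (HFD) or a normal diet (ND). The other 9 were Mdm2, Ccng1, Gadd45a, Gadd45b, Btg2, Bax, Sesn2, Trp53inp1 and Phlda3. The 10 genes were taken by name as known p53 targets, with earlier results of these data known. Probes were assigned to the genes through the RefSeq accession that the array files give for them. The 10 genes, of 19752 with a symbol on the array, had 12 probes. Of these, 11 were kept, and each of the 11 was well above background on all 8 arrays. The remaining probe, A_55_P1986282 for the Cdkn1a transcript NM_001111099, was not well above background on any of the 8 arrays.

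Agilent arrays, 1-colour and labelled with Cy3, had been run on total RNA of whole liver, 1 array for each of 8 male mice of strain C57BL/6, in a study of microRNA and mRNA in hepatic inflammation under high-fat feeding. The 4 groups, of 2 mice each, were HFD for 9 months, ND for 9 months, HFD for 3 months and ND for 3 months. The mice were bought at 5 weeks of age, so the groups of 9 months were also the older ones. HFD held 58% fat, 25.5% carbohydrate and 16.4% protein (5.2 kcal/g), and ND held 4.8% fat, 50.21% carbohydrate and 20.78% protein (3.8 kcal/g), so the diets differed in more than fat. No mutation or drug is named for any group. The description of 1 ND mouse of 3 months speaks of steatohepatitis, while its title and diet label give the normal diet, and it was kept as ND.

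The p53 protein is a transcription factor that is held at a low level by Mdm2 and accumulates when DNA is damaged or cells are stressed. It binds paired copies of a short motif near its target genes and raises their transcription, which brakes the cell cycle, prompts repair or starts apoptosis. Several of these targets also answer to other regulators: Cdkn1a to glucocorticoids, PPARs and FOXO proteins, Gadd45b to NF-kB, and Sesn2 to ATF4. In liver, Cdkn1a limits hepatocyte proliferation and is widely used as a marker of senescence.

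Values are log2 signals relative to the 75th percentile of the array's spots, so that 1 unit is a 2-fold difference and 0 is a bright spot rather than absence. They compare arrays for 1 probe and not 1 gene with another. That percentile stood at an intensity of 185 to 428 on HFD arrays and of 482 to 597 on ND arrays. HFD 9 months replicate 2 was the dimmest array, with 40.6% of its spots well above background against 43.0% to 54.1% on the other 7. All HFD arrays lay on 1 slide and all ND arrays on another, and each slide carried its 9-month mice in row 2 and its 3-month mice in row 1. Diet and slide cannot be told apart in the comparisons that follow, nor can duration and row. All 10 hepatocyte markers examined, Alb and Apoa1 among them, had kept probes. Precision is limited by the small number of arrays.

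Sequence around the transcription start was searched for the p53 half-site consensus, the 10-letter core that p53 binds in pairs, because the genes were grouped as p53 targets. The windows are those of RefSeq on build GRCm38.p6, 300 bases each, from 250 bases before to 50 after a start. There were 10 windows for 9 of the genes, Cdkn1a having 2 starts and Trp53inp1 no window. The consensus is its own reverse complement, so that 1 search covers both strands. At least 1 match lay in 5 of the 10 windows, against 2745 of all 32851 windows (8.36%). The first Cdkn1a window (chr17:29090729-29091028, plus strand) is shown whole because it held 2 matches, which are in capitals and begin 73 and 51 bases before that start.

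Cdkn1a, first start: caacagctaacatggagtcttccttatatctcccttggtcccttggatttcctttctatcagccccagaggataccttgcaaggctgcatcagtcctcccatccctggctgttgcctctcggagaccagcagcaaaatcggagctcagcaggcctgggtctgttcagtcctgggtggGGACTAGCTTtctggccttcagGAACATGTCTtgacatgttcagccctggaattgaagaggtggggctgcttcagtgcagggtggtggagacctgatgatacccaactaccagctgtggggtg

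The second Cdkn1a start lies 2790 bases downstream of the first, and its window held no match. The match GAACATGTCT is 2841 bases upstream of that second start. A distal p53 element upstream of Cdkn1a is well known in mouse and human. Single matches were found for Ccng1, Gadd45a, Mdm2 and Bax. They are shown in stretches of 40 bases, again with the match in capitals, on the minus strand at chr11:40755447-40755486, chr6:67037423-67037462, chr10:117710920-117710959 and chr7:45467075-45467114.

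Ccng1: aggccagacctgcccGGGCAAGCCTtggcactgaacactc
Gadd45a: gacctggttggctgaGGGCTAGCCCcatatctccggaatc
Mdm2: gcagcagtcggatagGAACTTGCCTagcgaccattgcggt
Bax: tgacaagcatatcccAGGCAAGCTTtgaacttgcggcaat

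The windows of Gadd45b, Btg2, Phlda3 and Sesn2 held no match. That of Phlda3 (chr1:135765835-135766134, plus strand, 71.7% G and C) is given because this gene differed most steadily between the diets.

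Phlda3: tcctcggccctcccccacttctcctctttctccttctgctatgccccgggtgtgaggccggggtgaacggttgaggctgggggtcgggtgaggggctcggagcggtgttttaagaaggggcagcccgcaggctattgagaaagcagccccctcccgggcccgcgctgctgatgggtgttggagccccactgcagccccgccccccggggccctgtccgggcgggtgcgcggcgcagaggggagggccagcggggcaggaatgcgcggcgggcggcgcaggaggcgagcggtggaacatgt

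A match describes the letters only, and its absence says nothing of p53 binding at other positions or to a looser form of the motif. The last letters of the Phlda3 window fit the beginning of the consensus, and the window ends before a full match could be read.

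Between the diets, 2 of the 10 genes passed at 9 months (Benjamini-Hochberg adjusted p under 0.05 over 20165 features in limma), Btg2 and Phlda3. Both were higher on HFD, where 3.56% of all features were called higher and 8.28% in either direction. At 3 months 2 passed, Cdkn1a and Phlda3, again both higher, against 1.51% of all features called higher and 5.18% in either direction. Over both durations Ccng1 and Phlda3 passed, both higher, against 10.3% of all features higher and 22.1% in either direction. The call of 2 genes in 10 is thus close to the background of that last comparison.

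Between durations, 0 of the 10 passed on HFD, where 0.00992% of all features did and 3 of the 10 (Cdkn1a, Mdm2 and Phlda3) had an unadjusted limma p under 0.05, as had 15.5% of all features. On ND 1 passed, Cdkn1a, which was higher at 9 months, against 0.441% of all features called higher and 1.04% in either direction.

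Cdkn1a encodes p21, which inhibits the cyclin-dependent kinases that drive cells into S phase. It was lowest in ND livers of 3 months, and HFD livers of that duration and ND livers of 9 months were both significantly higher. On its probe A_51_P363947, spotted 10 times on each array, the log2 signal was 0.50 and 1.36 in HFD livers and 0.62 and 1.13 in ND livers at 9 months. After 3 months it was -0.90 and -0.96 in HFD livers and -3.30 and -3.07 in ND livers. The SD between its spots on 1 array, a technical spread only, was 0.0355 to 0.227.

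At 3 months Cdkn1a was 4.76-fold higher on HFD (log2 difference 2.25 ± 0.33 SE, adjusted p = 0.0237, n = 2 a group). At 9 months the diets overlapped (0.06 ± 0.33, adjusted p = 0.933). On ND, livers of 9 months were 16.7-fold above those of 3 months (4.06 ± 0.33, adjusted p = 0.0146). This difference ranked 15 by p and 33 by size among the 20165 features. On HFD the same comparison gave 1.86 ± 0.33, with the 9-month arrays above the 3-month arrays and an adjusted p of 0.124. Without HFD 9 months replicate 1 it was 2.29 and passed (adjusted p = 0.0221).

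In order of the means, Cdkn1a stood at 0.93 ± 0.61 in HFD livers and 0.88 ± 0.36 in ND livers at 9 months, then at -0.93 ± 0.05 in HFD livers and -3.18 ± 0.17 in ND livers at 3 months (SD, n = 2 each). The first pair of neighbours did not differ beyond their spread, and the groups of the other neighbouring pairs did not overlap. The difference between the diet effects of 9 and 3 months was -2.20 ± 0.47 and did not pass (adjusted p = 0.404). None of the 20165 features passed that test with limma, and 1537 had an unadjusted p under 0.05, so the smaller diet difference of Cdkn1a at 9 months is a description. In whole liver, more cells of a type with the transcript and more transcript per cell cannot be told apart.

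Leaving out an array of the comparison ended both Cdkn1a calls. The 3-month diet difference stayed between 2.13 and 2.37, with an adjusted p of 0.162 without ND 3 months replicate 1, 0.174 without ND 3 months replicate 2, 0.0756 without HFD 3 months replicate 1 and 0.0593 without HFD 3 months replicate 2. The difference between durations on ND stayed between 3.80 and 4.32, with an adjusted p of 0.184 without ND 3 months replicate 1, 0.147 without ND 3 months replicate 2, 0.0623 without ND 9 months replicate 1 and 0.0547 without ND 9 months replicate 2. Other background handling gave smaller differences. Under normexp, the diet difference of Cdkn1a at 3 months was 1.49 (adjusted p = 0.0224) and that between durations on ND 2.95 (adjusted p = 0.00693). In the authors' value table, which has no background subtraction, they were 1.08 (adjusted p = 0.0600) and 2.47 (adjusted p = 0.0148).

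**Figure D1:**
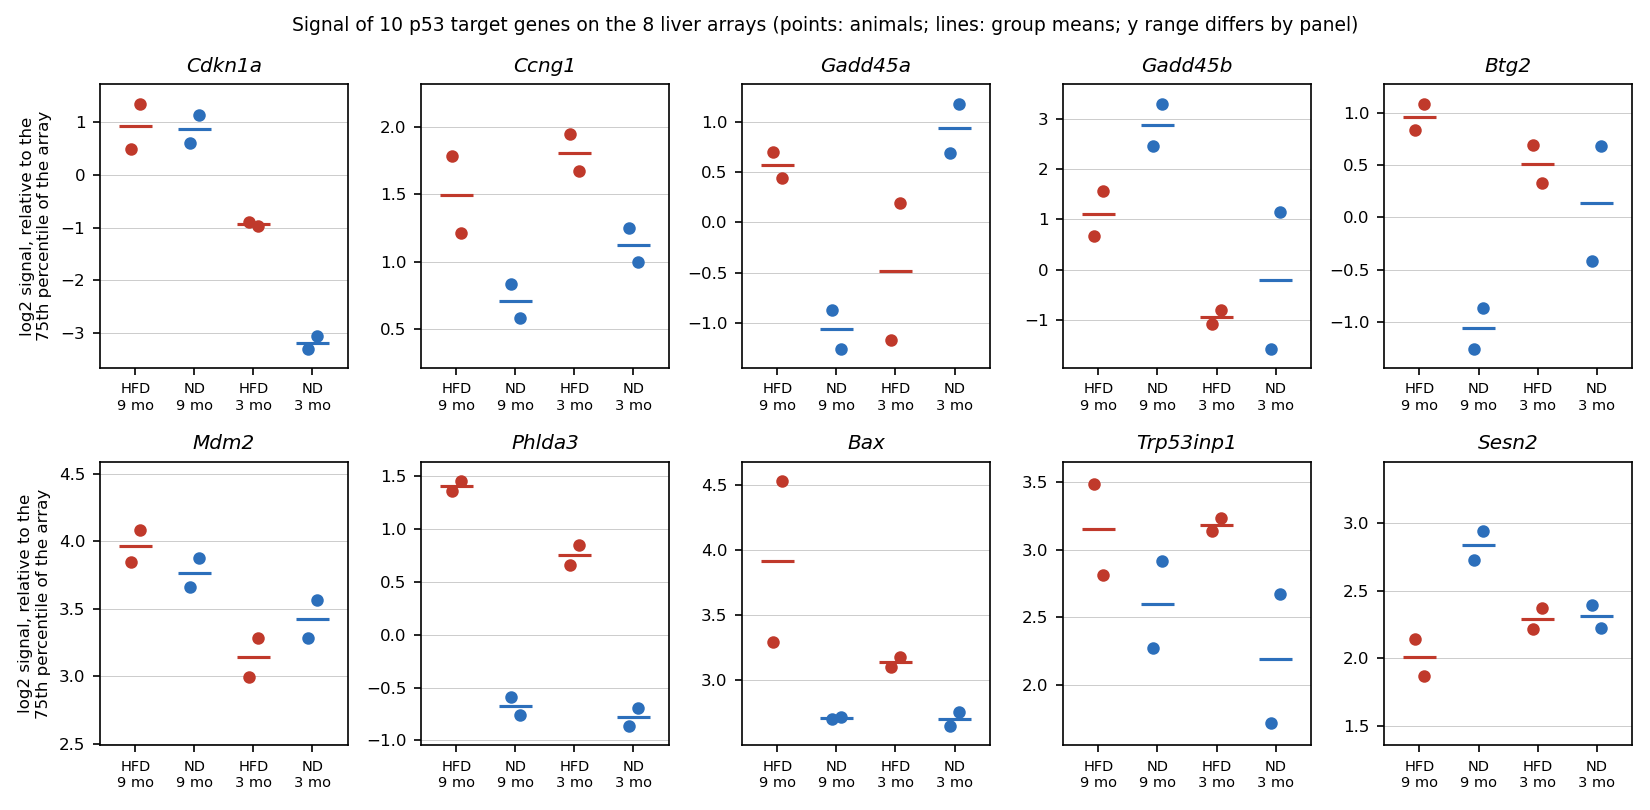
Log2 signal relative to the 75th percentile of the array (y axis) of the 10 genes in 4 groups (x axis), 1 point per mouse and a line at the group mean of 2, with a y range of its own in each panel. Cdkn1a was lowest in ND livers of 3 months (-3.30 and -3.07), and both HFD groups of Phlda3 lay above both ND groups.

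Ccng1 encodes cyclin G1, which recruits a phosphatase to Mdm2 and takes part in switching p53 off again. In log2 signal it stood at 1.78 and 1.21 in HFD livers and 0.84 and 0.58 in ND livers at 9 months. The 3-month values were 1.95 and 1.67 in HFD livers and 1.25 and 1.00 in ND livers. At each duration both HFD arrays were above both ND arrays, although the lowest HFD array (9 months) fell just short of the highest ND array (3 months). Over both durations Ccng1 was 1.67-fold higher on HFD (0.74 ± 0.17, adjusted p = 0.0249, n = 4 a diet). Taken singly, the differences were 0.79 ± 0.26 at 9 months (adjusted p = 0.109) and 0.68 ± 0.26 at 3 months (adjusted p = 0.161). The call was lost without ND 3 months replicate 1 (adjusted p = 0.0579) or replicate 2 (0.0835), ND 9 months replicate 2 (0.0720) or HFD 3 months replicate 1 (0.0662).

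Gadd45a and Gadd45b encode related small proteins that bind PCNA and stress-activated kinase regulators. Gadd45a is the classical p53 target of the pair. It had log2 signals of 0.69 and 0.44 in HFD livers and -0.87 and -1.26 in ND livers at 9 months. At 3 months the values were -1.17 and 0.19 in HFD livers and 0.69 and 1.18 in ND livers. The diets thus did not overlap at either duration and lay in opposite order. The difference was 1.63 ± 0.45 at 9 months (adjusted p = 0.0778) and -1.42 ± 0.45 at 3 months (adjusted p = 0.119), and neither passed. The 9-month difference passed in the fit without HFD 3 months replicate 1 or replicate 2 (adjusted p = 0.0343 in each), which pools the spread of the remaining arrays. It also passed under normexp (1.48, adjusted p = 0.0361) and in the authors' value table (1.39, adjusted p = 0.0320). The HFD arrays of 3 months were far apart. Without HFD 3 months replicate 2 the 3-month difference was -2.10 (adjusted p = 0.0388), and without replicate 1 it was -0.74 (adjusted p = 0.305).

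For Gadd45b the log2 signal was 0.68 and 1.55 in HFD livers and 2.45 and 3.30 in ND livers at 9 months. The 3-month livers gave -1.07 and -0.80 on HFD and -1.57 and 1.14 on ND, the widest gap between mice of a group among the 10 genes. ND livers of 9 months had the highest values and did not overlap any other group. The differences between durations were 2.05 ± 0.85 on HFD (adjusted p = 0.326) and 3.09 ± 0.85 on ND (adjusted p = 0.164). With an SE of 0.85 no comparison of Gadd45b passed, and the diet difference at 9 months was -1.76 (adjusted p = 0.231). In this pair of relatives, Gadd45a was therefore higher and Gadd45b lower in HFD than in ND arrays at 9 months, without a call for either.

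Btg2 encodes an antiproliferative protein that recruits the CCR4-NOT deadenylase to messenger RNAs. It was higher on HFD at 9 months, where the log2 signal was 0.84 and 1.09 in HFD livers and -1.26 and -0.87 in ND livers. In livers of 3 months it was 0.69 and 0.33 in HFD livers and -0.41 and 0.68 in ND livers. The groups of 9 months were clearly apart, whereas those of 3 months overlapped. Btg2 was 4.07-fold higher on HFD at 9 months (2.03 ± 0.38, adjusted p = 0.0311), against 0.38 ± 0.38 at 3 months (adjusted p = 0.560). The difference between the diet effects was 1.65 ± 0.54 and did not pass (adjusted p = 0.571). On ND, livers of 9 months were lower than those of 3 months by a value that did not pass either (-1.20 ± 0.38, adjusted p = 0.215).

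The Btg2 call at 9 months was lost without ND 9 months replicate 1 (adjusted p = 0.0997), ND 9 months replicate 2 (0.0978), HFD 9 months replicate 1 (0.0576) or HFD 9 months replicate 2 (0.0712). It was also lost when Btg2 was fitted on the 4 arrays of 9 months alone (adjusted p = 0.0765) or with array weights (0.250). Its size was 1.37 under normexp (adjusted p = 0.0461) and 1.32 in the authors' value table (adjusted p = 0.0369).

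Mdm2 encodes the ubiquitin ligase that marks p53 for degradation and closes the main feedback loop. Its log2 signal was 3.85 and 4.09 in HFD livers and 3.66 and 3.88 in ND livers at 9 months. After 3 months the values were 2.99 and 3.29 in HFD livers and 3.28 and 3.56 in ND livers. The 4 arrays of 9 months were all above the 4 arrays of 3 months, and the diets overlapped at both durations. Mdm2 differed by 0.20 ± 0.21 between the diets at 9 months (adjusted p = 0.575) and by -0.28 ± 0.21 at 3 months (adjusted p = 0.435). Between durations it differed by 0.83 ± 0.21 on HFD (adjusted p = 0.199) and by 0.35 ± 0.21 on ND (adjusted p = 0.514).

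Trp53 itself, the gene of p53, did not pass in any comparison. Its log2 signal was -1.89 and -1.26 in HFD livers and -2.06 and -2.16 in ND livers at 9 months, and -2.09 and -2.35 in HFD livers and -2.05 and -1.78 in ND livers at 3 months. The diet difference was 0.53 ± 0.26 at 9 months (adjusted p = 0.230) and -0.31 ± 0.26 at 3 months (adjusted p = 0.479). Mdm4, the Mdm2 relative that masks the activation domain of p53, differed by 0.22 ± 0.31 at 9 months and 0.01 ± 0.31 at 3 months (adjusted p = 0.674 and 0.982). Since p53 is controlled mainly through its stability, transcript levels of Trp53 do not measure its activity.

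Phlda3 encodes a pleckstrin homology protein that competes with AKT for membrane lipids and so restrains AKT signalling. It was higher on HFD at both durations. Its log2 signal was 1.36 and 1.46 in HFD livers and -0.59 and -0.76 in ND livers at 9 months, and 0.66 and 0.85 in HFD livers and -0.86 and -0.69 in ND livers at 3 months. The 4 HFD arrays were all above the 4 ND arrays, and the SD within a group was 0.07 to 0.14.

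The Phlda3 difference was 4.24-fold at 9 months (2.09 ± 0.18, adjusted p = 0.00654) and 2.89-fold at 3 months (1.53 ± 0.18, adjusted p = 0.0146). Among the 20165 features it ranked 55 by p at 9 months and 156 at 3 months. Over both durations it was 3.50-fold (1.81 ± 0.16, adjusted p = 0.00117). The call at 9 months and that over both durations held when any 1 array was left out. At 3 months the call was lost without ND 3 months replicate 1 (adjusted p = 0.134) or replicate 2 (0.142). Phlda3 differed by 0.65 ± 0.18 between durations on HFD (adjusted p = 0.216) and by 0.10 ± 0.18 on ND (adjusted p = 0.867).

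Bax encodes a pore-forming protein of the mitochondrial outer membrane that carries out apoptosis. Its log2 signal was 3.29 and 4.53 in HFD livers and 2.71 and 2.72 in ND livers at 9 months. The 3-month signals were 3.10 and 3.18 in HFD livers and 2.65 and 2.76 in ND livers. As with Phlda3, all 4 HFD arrays were above all 4 ND arrays. The Bax difference was 1.20 ± 0.38 at 9 months (adjusted p = 0.104), 0.44 ± 0.38 at 3 months (adjusted p = 0.496) and 0.82 ± 0.29 over both durations (adjusted p = 0.0795). The value of 4.53 came from the dimmest array, HFD 9 months replicate 2. Without it, Bax differed by 0.58 at 9 months (adjusted p = 0.0771) and by 0.50 over both durations (adjusted p = 0.0209). Without HFD 9 months replicate 1, it differed by 1.82 at 9 months (adjusted p = 0.0139).

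Trp53inp1 encodes a nuclear stress protein that promotes p53 phosphorylation and autophagy. It was the only gene of the 10 with 2 kept probes, both assigned to NM_021897, and they did not run together. The brighter probe, A_51_P175580, read 3.49 and 2.81 in HFD livers and 2.27 and 2.92 in ND livers at 9 months, and 3.14 and 3.24 in HFD livers and 1.71 and 2.67 in ND livers at 3 months. The other probe, A_55_P1973906, read -1.13 and -0.54 in HFD livers and -0.54 and 0.43 in ND livers at 9 months, and -0.98 and -1.05 in HFD livers and -1.21 and 0.12 in ND livers at 3 months. Over both durations the brighter probe of Trp53inp1 differed by 0.78 ± 0.28 between the diets and the other by -0.62 ± 0.34, and neither passed (adjusted p = 0.0901 and 0.227 over all kept probes). The sign for Trp53inp1 therefore depends on the probe.

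Sesn2 encodes sestrin 2, a leucine sensor and antioxidant protein that restrains mTORC1. Its log2 signal was 2.14 and 1.87 in HFD livers and 2.73 and 2.95 in ND livers at 9 months. For 3 months the values were 2.22 and 2.37 in HFD livers and 2.39 and 2.23 in ND livers. HFD livers of 9 months had the lowest values and ND livers of 9 months the highest, while the diets overlapped at 3 months. Sesn2 differed by -0.83 ± 0.20 at 9 months, just short of the threshold (adjusted p = 0.0537), and by -0.02 ± 0.20 at 3 months (adjusted p = 0.966). It passed at 9 months under 5 of 13 other ways of processing, and without HFD 9 months replicate 1 (-0.97, adjusted p = 0.0443).

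**Figure D2:**
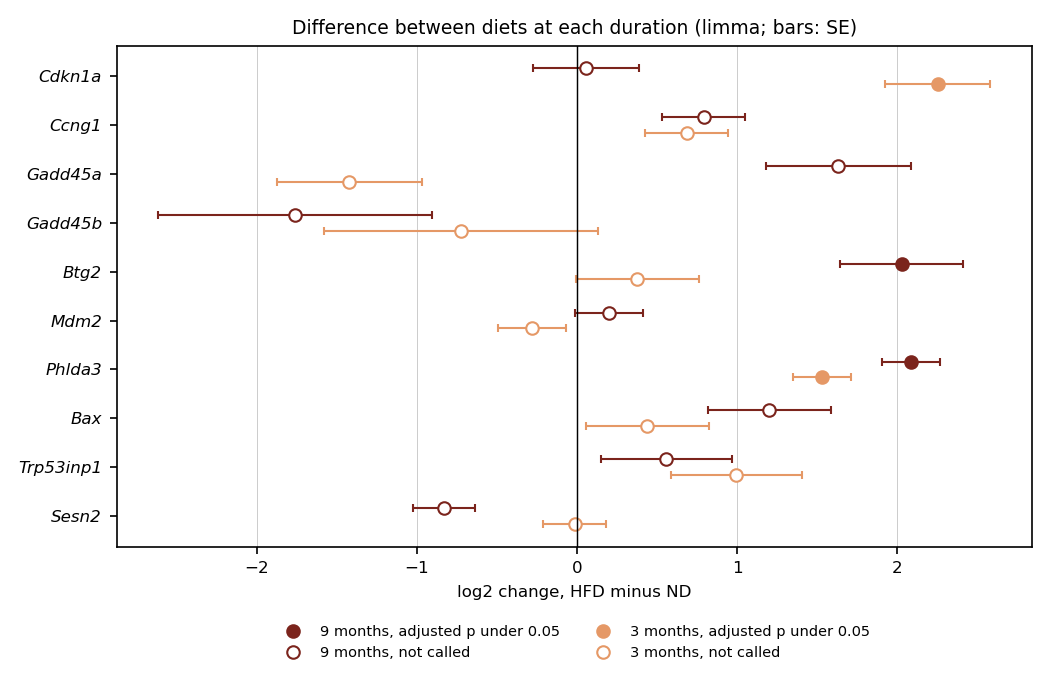
Log2 difference, HFD minus ND (x axis), of each of the 10 genes (y axis) at 9 and 3 months, with bars for the SE. Filled points passed (adjusted p under 0.05): Phlda3 at both durations, Btg2 at 9 months and Cdkn1a at 3 months.

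**Figure D3:**
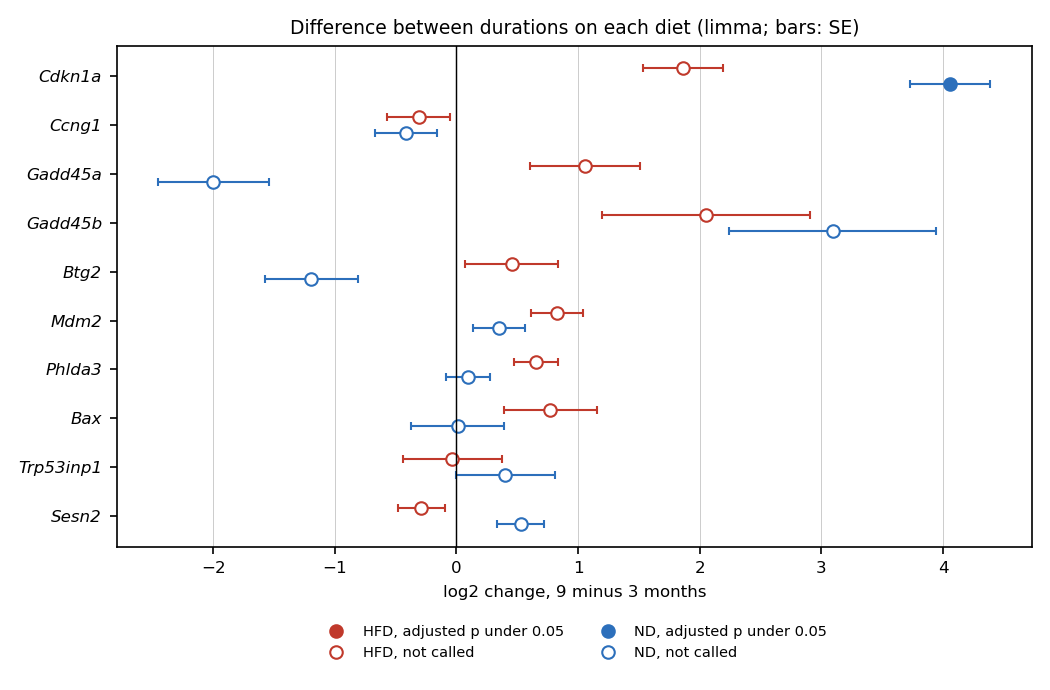
Log2 difference, 9 minus 3 months (x axis), of each of the 10 genes (y axis) on HFD and on ND, with bars for the SE. Cdkn1a on ND (4.06 ± 0.33) is the single filled point, that is, the single one that passed.

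Arrays of the 2 diets did not overlap for 7 of the 10 genes at 9 months, 5 higher and 2 lower on HFD, against 54.6% of all features (28.5% higher and 26.1% lower). At 3 months this held for 6 of the 10, 5 higher and 1 lower, against 71% of all features (35.6% higher and 35.4% lower). Between durations, 8 of the 10 did not overlap on HFD, 7 of them higher at 9 months and Sesn2 lower, against 44.3% of all features (21% higher and 23.3% lower). On ND it was 7 of the 10, 4 higher and 3 lower, against 60.5% (23.4% higher and 37.1% lower). Over all 8 arrays the diets did not overlap for 2 of the 10, Phlda3 and Bax, both higher, against 25.5% of all features (11.5% higher).

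The median difference of the 10 genes between the diets was 0.67 at 9 months and 0.41 at 3 months, against 0.02 and -0.01 for all features. Between durations it was 0.71 on HFD and 0.22 on ND, against 0.00 and -0.07. The genes did not move as 1 block. At 9 months 8 of the 10 had a positive diet difference, with Gadd45b and Sesn2 as the exceptions; the sign was negative for Cdkn1a under median scaling (-0.0062), for Mdm2 under normexp (-0.15) and in the authors' table (-0.098), and for Trp53inp1 as the mean of its probes (-0.11). At 3 months 6 did, with Gadd45a, Gadd45b, Mdm2 and Sesn2 as the exceptions. The value of Sesn2 there, -0.02, was positive under quantile normalization (0.013), under another percentile (0.0342) and in the authors' table (0.0341).

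Other genes of the pathway were taken from lists of p53 targets, of p53 and its regulators, and of relatives and partners of the 10 genes. Of 49 further p53 targets, 40 were tested. At 9 months 2 of them were higher on HFD and 0 lower, near the share of all features (3.56% higher and 4.73% lower). The median difference was 0.18, against 0.02 for all features. Thbs1, 1 of the 2, encodes the matrix protein thrombospondin 1 and read -1.50 and -0.35 in HFD livers and -3.06 and -4.11 in ND livers (2.66 ± 0.57, adjusted p = 0.0428), with 1 of the 2 ND arrays above background. It was kept through its HFD groups alone, so that its difference is a description, and in the authors' value table that difference was 1.24. Thbs1 is also a well known target of TGF-beta.

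At 3 months 0 of these 40 targets passed in limma, against 5.18% of all features. An unadjusted limma p under 0.05 was found for 8 (as for 26.3% of all features). Their median was 0.23, against -0.01 for all features. The smallest p belonged to Perp, a desmosomal apoptosis effector, at 1.11 ± 0.29 (adjusted p = 0.0800). It read 6.62 and 6.41 in HFD livers and 5.46 and 5.35 in ND livers. The second smallest was that of Thbs1, whose ND arrays were not well above background at 3 months. It was at least 2.77-fold higher on HFD there (adjusted p = 0.0816), a bound set by the dimmest probes that still counted as well above background on ND arrays. Over both durations 3 of the 40 were higher on HFD (Thbs1, Perp and Pmaip1) and Sfn was lower, against 10.3% of all features higher and 11.8% lower. Pmaip1 differed by 2.55 ± 0.71 there (adjusted p = 0.0408), a call lost in most fits that left out 1 array. Perp differed by 0.95 ± 0.20 there (adjusted p = 0.0186), a call that held in 4 of the 8 fits that left out 1 array.

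Of 25 genes of p53 and its regulators, 23 were tested and 0 passed between the diets at either duration in limma. Of all features, 8.28% passed at 9 months and 5.18% at 3 months. The smallest p at 9 months was that of Sirt1, a deacetylase of p53 (0.72 ± 0.18, adjusted p = 0.0571), followed by that of Rpl5, a ribosomal protein that inhibits Mdm2 (-1.63 ± 0.43, adjusted p = 0.0690). At 3 months it was that of Trp63, a p53 relative (1.88 ± 0.40, adjusted p = 0.0529), followed by that of Ep300, an acetyltransferase and coactivator (-1.09 ± 0.28, adjusted p = 0.0765). All 4 had arrays of the diets that did not overlap, as had 54.6% of all features at 9 months and 71% at 3 months. Since the 4 were picked by p, this adds no evidence for them. The median of the list was 0.01 at 9 months and -0.06 at 3 months, close to that of all features.

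Over both durations, with more arrays a diet, 8 of the 23 passed, 5 higher on HFD (Trp63, Sirt1, Atr, Trp53bp1 and Crebbp) and 3 lower (Kat5, Rpl5 and Ep300), against 22.1% of all features. Trp63 differed by 1.55 ± 0.29 (adjusted p = 0.0124) and was called in 8 of the 8 fits that left out 1 array. Sirt1 differed by 0.62 ± 0.13 (adjusted p = 0.0153) and was called in 6 of the 8, all but those without ND 3 months replicate 1 or 2. The calls of Rpl5 (-1.15 ± 0.33, adjusted p = 0.0463) and Ep300 (-0.76 ± 0.22, adjusted p = 0.0470) each held in 1 of the 8. With 1 array left out, 1 to 6 of the 23 were higher and 0 to 2 lower, the fewest without ND 3 months replicate 2.

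Among 26 tested of 30 relatives and partners, 1 was higher and 1 lower on HFD at each duration. Of all features, 3.56% were higher and 4.73% lower at 9 months, and 1.51% and 3.67% at 3 months. The lower one of the 26 was Gadd45g, the remaining member of the Gadd45 family. It read 2.89 and 2.09 in HFD livers and 5.04 and 5.69 in ND livers at 9 months (-2.88 ± 0.47, adjusted p = 0.0225). At 3 months it read 3.72 and 4.34 in HFD livers and 5.87 and 6.88 in ND livers (-2.34 ± 0.47, adjusted p = 0.0470). Gadd45g was thus lower on HFD by a similar amount at both durations, unlike Gadd45a, whose order changed.

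The higher one was Ccna2, which encodes the S phase cyclin A2. At 9 months it was at least 2.37-fold higher on HFD, because neither ND array was well above background (adjusted p = 0.0268). At 3 months it read -1.71 and -1.65 in HFD livers and -3.39 and -3.71 in ND livers (1.87 ± 0.30, adjusted p = 0.0289), with 1 of the 2 ND arrays above background. Ccna2 was kept through its HFD groups alone, so that its differences are descriptions. The median difference of the 26 was 0.35 at 9 months and 0.51 at 3 months, against 0.02 and -0.01 for all features. Over both durations 7 of the 26 were higher on HFD (Ccna2, Sesn3, E2f1, Btg1, Ccnd1, Ccne1 and Ccnd2) and Gadd45g was lower. Of all features, 10.3% were called higher there and 11.8% lower.

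Genes of S phase and mitosis, which p21 represses in cultured cells, were counted beside Cdkn1a. Of 16 tested of 19 listed, 5 were higher on HFD and 0 lower at 9 months (median 1.097), against 3.56% of all features higher. At 3 months 7 were higher and 0 lower (median 1.63), against 1.51% higher, and over both durations 10 were higher and 0 lower (median 1.42), against 10.3% higher. None of these called genes was kept through HFD groups alone. Mcm6, a subunit of the replicative helicase, read 1.32 and 1.36 in HFD livers and 0.10 and 0.04 in ND livers at 9 months (1.27 ± 0.20, adjusted p = 0.0212). At 3 months Mcm6 read 3.79 and 3.46 in HFD livers and 1.44 and 1.12 in ND livers (2.34 ± 0.20, adjusted p = 0.00853). Mcm5, of the same helicase, differed by 1.78 ± 0.27 at 9 months (adjusted p = 0.0185) and by 2.55 ± 0.27 at 3 months (adjusted p = 0.0117). The 9-month call of Mcm5 was lost under normexp (0.66, adjusted p = 0.225) and in the authors' value table (0.32, adjusted p = 0.356). At 3 months Cdkn1a and both Mcm genes were thus higher on HFD together. On ND 2 of the 16, Mcm5 and Mcm3, were lower at 9 than at 3 months and 0 were higher, while Cdkn1a was higher. Of all features, 0.595% were called lower there.

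Targets of other regulators that share genes with the p53 response were counted as well. Of 14 tested ATF4 and CHOP targets, 4 were higher and 0 lower on HFD at 9 months, against 3.56% of all features higher. At 3 months 1 was higher and 0 lower, against 1.51% higher. Trib3, a pseudokinase of this stress pathway, read 3.70 and 3.66 in HFD livers and 2.72 and 2.74 in ND livers at 9 months (0.95 ± 0.21, adjusted p = 0.0452). The Trib3 difference was -0.81 ± 0.21 at 3 months (adjusted p = 0.0776) and 0.07 ± 0.35 over both durations (adjusted p = 0.895). Under normexp its 9-month value was 0.58 and did not pass (adjusted p = 0.0763). Vldlr, a lipoprotein receptor, differed by 2.73 ± 0.35 at 9 months (adjusted p = 0.0122) and by 1.96 ± 0.35 at 3 months (adjusted p = 0.0336). Psat1 and Chac1 were the other 2 at 9 months. Over both durations 4 of the 14 were higher on HFD and 1 lower, against 10.3% of all features higher and 11.8% lower. The lower one was Asns (-3.88 ± 0.74, adjusted p = 0.0132), so the list did not run in 1 direction. Sesn2, which ATF4 also induces, was lower on HFD at 9 months without passing.

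Of 20 tested NF-kB and immediate early genes, 2 were higher and 0 lower on HFD at 9 months, against 3.56% of all features higher. At 3 months 4 were higher and 0 lower, against 1.51% higher. The 4 were Tnfaip3, Vcam1, Klf6 and Icam1. Tnfaip3, which encodes the NF-kB inhibitor A20, read 0.76 and 0.84 in HFD livers and 0.09 and -0.32 in ND livers at 9 months (0.91 ± 0.20, adjusted p = 0.0433). At 3 months Tnfaip3 read 0.08 and -0.03 in HFD livers and -2.16 and -2.15 in ND livers (2.18 ± 0.20, adjusted p = 0.00877). On ND, 2 of the 20, Tnfaip3 and Icam1, were higher at 9 than at 3 months, against 0.441% of all features. Icam1 was not well above background on either ND array of 3 months. Between the diets at 3 months it was at least 2.11-fold higher on HFD (adjusted p = 0.0422). That log2 difference of Icam1 was 1.35 as reported and 0.37 in the authors' value table. It passed under 5 of 12 other ways of processing. Tnfaip3 shared with Cdkn1a the low level in ND livers of 3 months.

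Each call of these list genes at a single duration was lost in at least 1 of the 8 fits that left out 1 array, while no called difference changed sign. At 9 months the call of Thbs1 held in 1 of 8 such fits, that without HFD 9 months replicate 1, with adjusted p of 0.0555 to 0.169 in the rest. Gadd45g was called in 6 of 8 fits at 9 months, all but those without ND 9 months replicate 2 (adjusted p = 0.102) or HFD 9 months replicate 2 (0.0510), and in 2 of 8 at 3 months. Tnfaip3 was called in 0 of 8 at 9 months and in 6 of 8 at 3 months, Vldlr in 7 and 4, Mcm5 in 5 and 6, Mcm6 in 4 and 6 and Ccna2 in 4 and 4. Trib3 was called in 2 of 8 at 9 months. The calls between durations on ND (Mcm5, Mcm3, Tnfaip3 and Icam1) were lost in fits without an ND array of 3 months.

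**Figure D4:**
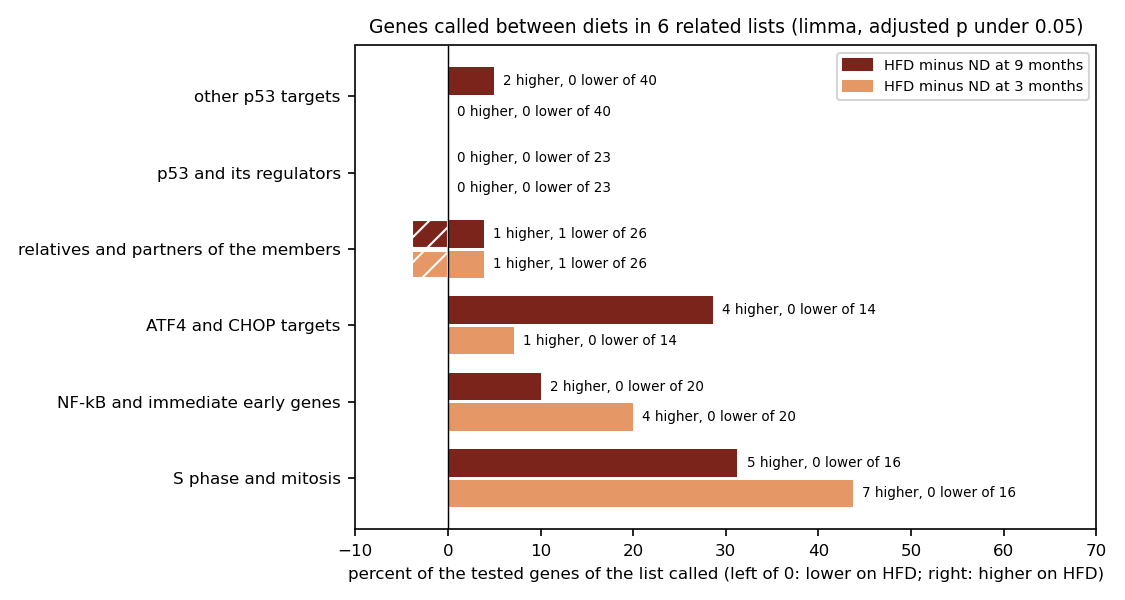
Share of tested genes called between the diets (x axis, percent, lower on HFD to the left of 0 and higher to the right) in 6 lists (y axis) at 9 and 3 months, with the counts beside the bars. The list of S phase and mitosis had the highest share at both durations, and 0 of the 23 regulators of p53 passed at either duration taken singly (8 passed over both durations).

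The genes whose log2 signals ran most like those of Cdkn1a over the 8 arrays were ranked by Pearson's r among 12884 genes, as a description of 8 arrays that fall into 4 groups. The highest were Oser1 (r = 0.987), Cpt1b (0.979), Gk (0.978), Pex11a (0.978), Safb (0.972) and Grhl1 (0.972). Cpt1b, which encodes a carnitine palmitoyltransferase of fatty acid oxidation, read -0.20 and 0.14 in HFD livers and -0.30 and -0.40 in ND livers at 9 months, and -1.81 and -1.14 in HFD livers and -3.47 and -3.61 in ND livers at 3 months. Pex11a, a peroxisomal membrane protein, spanned 1.28 log2 units, less than Cdkn1a. The lowest were Abcb10 (r = -0.991), Rd3 (-0.990) and Ndufb8 (-0.981). Of the other 9 p53 targets, Mdm2 (0.65) and Gadd45b (0.65) ran most like Cdkn1a, at ranks 1240 and 1246, and Gadd45a (-0.51) least.

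Markers of other liver cells were examined beside these results. The summed linear signal of the 9 macrophage markers tested, in multiples of the array's 75th percentile, was 109.8 and 138.9 in HFD livers and 195.9 and 69.3 in ND livers at 9 months. At 3 months it was 102.2 and 83.1 in HFD livers and 61.9 and 53.6 in ND livers, the lowest sums. Cd5l was the brightest of these markers. Without Cd5l the sums were 57.0 and 66.5 in HFD livers and 107.3 and 43.4 in ND livers at 9 months. At 3 months they were 55.6 and 43.8 in HFD livers and 42.2 and 41.6 in ND livers. The ND livers of 3 months were then close to single arrays of other groups. Cd68, the remaining marker listed, has no probe in the match. Between the diets 3 of the 9 were higher on HFD at 9 months, namely Trem2, Itgax and Gpnmb, against 3.56% of all features higher. At 3 months 2 were higher, namely Trem2 and Itgax, against 1.51%. Gpnmb was kept through its HFD groups alone. The summed signal of the 10 hepatocyte markers was 3930 and 6527 in HFD livers and 5389 and 5714 in ND livers at 9 months, and 3505 and 3845 in HFD livers and 5637 and 6577 in ND livers at 3 months, where Cdkn1a was higher on HFD. Among them Tat was lower on HFD at 9 months, against 4.73% of all features lower.

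The stellate cell marker Col1a1, of 6 tested, was higher on HFD at 9 and 3 months, against 3.56% and 1.51% of all features. The 6 summed to 103.6 and 89.8 in HFD livers and 101.1 and 78.0 in ND livers at 9 months. At 3 months they summed to 85.4 and 119.9 (HFD) and 69.4 and 78.3 (ND). Without Dcn, the brightest, these sums were 7.18 and 4.37 (HFD) and 2.21 and 1.74 (ND) at 9 months. At 3 months they were 6.51 and 7.33 (HFD) and 2.32 and 2.66 (ND). Endothelial Lyve1, of 7 tested, was higher on HFD at 3 months, against 1.51% of all features. Bile duct Cftr, of 4 tested, was lower at 9 months, against 4.73%. Over both durations endothelial Lyve1 and Stab2 were higher and Kdr lower, and bile duct Spp1 was higher and Cftr lower. Of all features, 10.3% were called higher there and 11.8% lower. The 5 T and NK cell markers tested summed to 28.2 and 33.5 in HFD livers and 224.5 and 161.8 in ND livers at 9 months, and to 35.4 and 60.8 in HFD livers and 165.6 and 230.5 in ND livers at 3 months, with Cd4 lower on HFD at both and Cd3g, Cd8a and Klrd1 not kept. Cd4 was the brightest and carried most of these sums. Without it they were 6.47 and 10.3 in HFD livers and 9.67 and 11.2 in ND livers at 9 months, and 6.04 and 7.87 in HFD livers and 9.11 and 9.97 in ND livers at 3 months. The median difference of the 5 markers was -0.0044 at 9 months and 0.24 at 3 months. Like Cd4, 4.73% of all features were called lower at 9 months and 3.67% at 3 months. The 2 neutrophil markers tested summed to 34.6 on HFD 9 months replicate 2, the array with the high Bax value, and to 0.737 to 6.07 on the other 7 arrays. The part of other cell types in the results on the p53 targets was not tested.

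**Figure D5:**
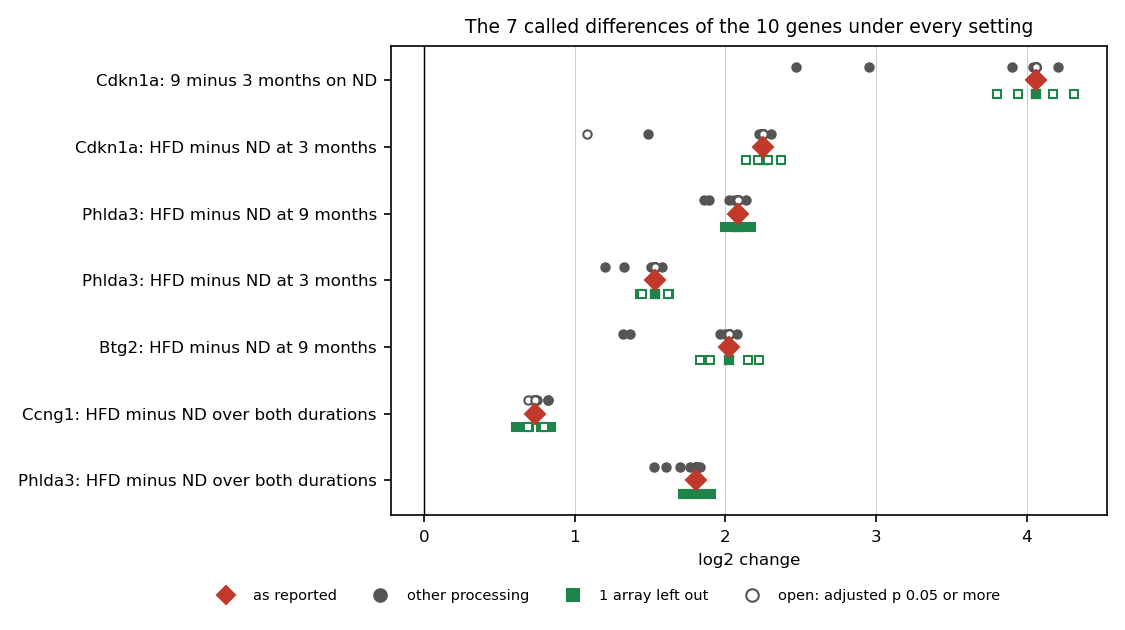
Log2 change (x axis) of the 7 differences that passed among the 10 genes (y axis), as reported (diamonds), under other ways of processing (circles) and with 1 array left out (squares), open where the adjusted p was 0.05 or more. The sign of all 7 was the same throughout, whereas only Phlda3 at 9 months and over both durations passed in every fit that left out 1 array.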

How the data were processed

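The scanner files deposited by the authors, 1 for each array, were made with Agilent Feature Extraction (version 10.7.1.1), per the submitters' processing notes. Per the file headers, processed intensity had its background subtracted and was detrended, and median intensity of spot and background was not corrected. The deposited flags are other values, 0 or 1 for each spot. The log2 values deposited by the authors as a value table followed the median intensity exactly in rank (Spearman's rho of 1) and had column medians of 7.14, that is, quantile-normalized signals without background subtraction.

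After 3671 control spots and outlier-flagged spots were left out, the log2 processed signal (pseudocount none) was taken relative to the array's 75th percentile, and spots of a probe were averaged. Of 55681 probes, 25801 were kept, being well above background (a share of 0.5 or more of the spots) on both arrays of at least 1 group. The brightest kept probe stood for a gene, which gave 20165 features, 12885 with a symbol. Symbols came from matching the accessions of 26056 probes to RefSeq genes (GRCm38.p6). Since the arrays were annotated on mm9, coordinates are given only for RefSeq promoter windows.

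Features were tested with limma (version 3.58.1, run under R 4.3.3; tables read by version 1.17.8 of data.table) by lmFit and eBayes on 4 group means (4 residual and 2.33 prior degrees of freedom), and, for diet over both durations, with a term for duration (5 and 2.4). Adjusted p-values are Benjamini-Hochberg over all 20165 features, called under 0.05. In simulated data with a change at 9 months on 20165 features, 0 of 67 changes of log2 1, 34 of 67 of log2 2 and 49 of 66 of log2 3 were found, with 6 false calls. No other feature was changed there, whereas 8.28% of all features were called between the diets at 9 months in the data. The shares found are therefore not those of the reported tests. Alternatives were quantile normalization, 2 other scalings, normexp (offset 50), the authors' table, 2 filters, the mean of all kept probes, trend and robust moderation, array weights, a replicate block, the 4 arrays of a contrast alone, and leaving out each array. Per the labels the arrays hold RNA of separate mice. Python 3.11.15, numpy 2.4.6, pandas 2.3.3 and matplotlib 3.10.9 were used.

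The 10 genes and the lists were chosen with earlier results of these data known, so no list is independent evidence. Named are all 10 genes, Trp53 and Mdm4, up to 4 called genes of a list for each comparison of diets (2 with the smallest p where none passed), and the 6 genes most and 3 least like Cdkn1a. Called genes named in counts beyond these (Psat1, Chac1, Asns, Pmaip1, Sfn, regulators and relatives called over both durations, cell type markers, genes called between durations) were picked after their values were seen. A called gene of the list of further p53 targets is not reported here.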

Additional observations from a re-analysis of the deposited data

Results flagged for a closer look

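The diets lay in opposite order for Gadd45a at the 2 durations. Both HFD arrays were above both ND arrays at 9 months (0.69 and 0.44 in HFD livers, -0.87 and -1.26 in ND livers) and below them at 3 months (-1.17 and 0.19 in HFD livers, 0.69 and 1.18 in ND livers). The difference between the diet effects of 9 and 3 months was 3.05 ± 0.64 on the log2 scale and did not pass over all features (limma, adjusted p = 0.403). Groups of 2 mice allow no test for a single mouse that stands apart.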

How the results depend on the processing

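Of the 1240 values of the 10 genes under other settings, 1149 kept their direction and side of the threshold, 28 lost a call, 26 gained one and 37 changed sign, all of the last uncalled. The numbers of called features moved further. Without a filter on dim probes, 68 features were called between the diets at 3 months (1045 as reported), 274 at 9 months (1670), 2386 over both durations (4453), 0 between durations on HFD (2) and 5 on ND (209). That setting ended the calls of Cdkn1a (adjusted p = 0.0860 between the diets at 3 months, 0.0655 between durations on ND), Btg2 (0.0979), Ccng1 (0.0758) and, at 3 months, Phlda3 (0.0827). More features were tested there, and the SE rose as well, for Phlda3 at 3 months from 0.18 to 0.24 at the same log2 difference. Array weights gave 3972 at 3 months, 276 at 9 months, 0 on HFD and 1409 on ND. The 4 arrays of a contrast alone gave 2780, 0, 0 and 137 in the same order, and at 9 months Phlda3 was not called there (adjusted p = 0.0694). Trend and robust moderation gave 19 on HFD, 324 on ND and 1 for the difference between the diet effects. On HFD quantile normalization gave 61, median scaling 25, normexp 32, probes well above background on all arrays 16, single probes 1 and the authors' values 69. For the difference between the diet effects, quantile normalization and probes above background on all arrays gave 1 each. The cause of these shifts was not tested. The share of higher calls moved with median scaling to 17.7% at 3 months (29.2% as reported), 27.0% at 9 months (42.9%) and 29.7% over both durations (46.5%), and that scaling ended the Ccng1 call (adjusted p = 0.130).

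Mouse numbers in the titles went with no strong shared deviation: deviations of same-numbered mice correlated between -0.018 and 0.137 over the 6 pairs of groups. Mice numbered 1 lay in column 1 of their slide and mice numbered 2 in column 2. With 1 deviation a group, this cannot exclude a pairing of the mice. With the number as a replicate block, 56 features were called between durations on ND and 0 on HFD, and no call of the 10 genes changed; Cdkn1a at 3 months kept 2.25 (adjusted p = 0.0256).

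Leaving out each array in turn gave 0 to 2232 features at 3 months, 365 to 2505 at 9 months, 1840 to 5949 over both durations, 0 to 1933 on HFD (1933 without HFD 9 months replicate 1, where Cdkn1a passed at 2.29, adjusted p = 0.0221), 0 to 340 on ND and 0 to 3 for the difference between the diet effects.

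Signs changed for these uncalled differences. At 3 months Sesn2 was 0.013 with quantile normalization, 0.0342 with another percentile and 0.0341 in the authors' table, and Mdm4 was -0.013 with median scaling and -0.059 as the mean of its probes. At 9 months Cdkn1a was -0.0062 with median scaling, Mdm2 -0.15 with normexp and -0.10 in the authors' table, and Trp53inp1 -0.11 as the mean of its probes. Between durations on HFD, Trp53inp1 was 0.028 with quantile normalization, 0.031 with another percentile, 0.10 in the authors' table and 0.073 as the mean of its probes. On ND, Phlda3 was -0.060 with median scaling and -0.039 in the authors' table, Bax -0.15 and Mdm4 -0.11 with median scaling, and Mdm4 -0.12 as the mean of its probes. For the difference between the diet effects Mdm4 was -0.11 with normexp and -0.074 in the authors' table. Over both durations array weights gave -0.51 for Gadd45a, -0.059 for Trp53 and -0.020 for Mdm4.

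With 1 array left out, differences at 3 months spanned -2.08 to 0.63 for Gadd45b, -0.17 to 0.92 for Btg2, -0.10 to 0.069 for Sesn2, -0.16 to 0.19 for Mdm4 and -1.37 to 0.013 for Rpl5. At 9 months they spanned -0.37 to 0.48 for Cdkn1a, -0.19 to 0.64 for Mdm4 and -0.066 to 0.53 for Icam1. On HFD they spanned -0.37 to 0.30 for Trp53inp1 and -0.15 to 0.67 for Mdm4, and on ND -0.043 to 0.064 for Bax, -0.078 to 0.88 for Trp53inp1 and -0.13 to 0.23 for Mdm4. For the difference between the diet effects they spanned -0.18 to 0.39 for Ccng1, -2.39 to 0.32 for Gadd45b, -0.92 to 0.043 for Trp53inp1 and -0.20 to 0.62 for Mdm4. Over both durations they spanned -0.28 to 0.68 for Gadd45a, -0.14 to 0.066 for Mdm2, -0.10 to 0.25 for Trp53 and -0.066 to 0.26 for Mdm4. A left-out array leaves 1 mouse in a group, which is then assumed to vary like the others.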
